A study of Homo sapiens with 12 samples.

Results

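Axon guidance ligands and receptors formed a set of 68 protein-coding genes among the 58395 genes in the count table. Members were taken by symbol alone: the Eph receptors, ephrins, semaphorins, plexins, Robo receptors, Slit ligands and UNC5 receptors, plus NRP1, NRP2, NTN1, NTN4 and DCC. The symbol rule left out EPHB6 and the SLITRK genes, and no measured value entered it. It also took in UNC50, a Golgi membrane protein, and UNC5CL, a death domain protein related to the UNC5 receptors. Neither is known as a guidance receptor, and both are described apart.

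RNA was sequenced from 3 human leukemia lines, with 4 libraries each. K562 is an established line from a chronic myeloid leukemia in blast crisis with erythroid features. Its clonal subline K/VP.5 is resistant to etoposide, a topoisomerase II poison, and per the series' design it makes a truncated form of TOP2A protein from a transcript that keeps intron 19. K/VP.5/edit-3, here edit-3, is 1 clone derived from K/VP.5 in which the 5′ splice site between exon 19 and intron 19 of TOP2A was altered with Cas9, a guide and an oligonucleotide template. The labels state, for all 3 lines in 1 sentence, that 0.5 µM etoposide was added to the medium every other week. Differences between these lines can therefore reflect the clone, the drug history or the edit, and the design cannot tell these apart. The labels do not say if the 4 libraries were grown as separate cultures, so each p-value reflects only how much these libraries vary, and that may be technical. Each library is bulk RNA, in which fewer expressing cells and less RNA per cell cannot be told apart.

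Guidance cues were first studied as signals that steer growing axons, and the same families act in vessel growth, blood cell trafficking and cell adhesion. Slits are secreted ligands of the Robo receptors, and netrins are secreted ligands of DCC and the UNC5 receptors. Ephrins are membrane-anchored ligands of the Eph receptor tyrosine kinases, with the A class held by a lipid anchor and the B class by a membrane-spanning segment. Semaphorins signal through plexins, and the secreted class 3 semaphorins usually need a neuropilin as a co-receptor.

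Library totals ran from 25311993 to 37065946 reads, and the members together took 0.111 to 0.164% of reads in K562, 0.0885 to 0.110% in K/VP.5 and 0.102 to 0.147% in edit-3. TOP2A, the edited gene, read 490 to 543 CPM (counts-per-million, on library sizes scaled by TMM) in K562, 339 to 370 in K/VP.5 and 383 to 437 in edit-3. A gene count sums all transcripts, so it does not check the splice site edit. Of 10 erythroid markers, 9 reached 1 CPM in at least 1 line, with summed levels of 2609 to 4157 CPM in K562, 2266 to 3027 in K/VP.5 and 2406 to 3767 in edit-3. Of 6 neuron markers, SYP alone reached 1 CPM, and DCX and NEFL had 0 reads in all 12 libraries. The summed level of 6 fibroblast markers was 6.42 to 11.1 CPM in K562, 209 to 289 in K/VP.5 and 1686 to 2960 in edit-3, carried by COL1A2, while DCN, LUM and PDGFRA had at most 2 reads in any line. The summed level of 6 endothelial markers was 28.2 to 46.1 CPM in K562, 3.91 to 4.57 in K/VP.5 and 16.8 to 25.8 in edit-3, mostly from PECAM1. CDH5 and KDR, which define endothelium, had at most 1 read in any line. The other lists were 5 epithelial markers, of which 5 reached 1 CPM (summed levels of 902 to 1981, 1061 to 1658 and 1553 to 2556 CPM in K562, K/VP.5 and edit-3), 5 lymphocyte markers, of which 2 did, and 5 monocyte markers, of which 0 did. The lymphocyte sum was 40.1 to 81.9 CPM in K562, 10.8 to 18.8 in K/VP.5 and 21.6 to 53.1 in edit-3, mostly from CD3D, with MS4A1 at 0 reads. The part of these marker differences in the results below was not tested.

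More members were too low to test than were well expressed. Of the 68 members, 17 reached a mean of 10 CPM in at least 1 line, 19 more reached 1 CPM, and 5 (EFNA2, NTN1, SEMA3A, SEMA3B and SEMA6A) stayed below 1 CPM but had enough reads to test. Together these 41 members passed the filter on low counts. The other 27 did not, and 2 of them, EPHA3 and NTN4, had 0 reads in all 12 libraries, which allows a level of up to 0.00826 CPM (3 reads over the summed libraries). A floor of this kind covers counting error only. The remaining 25 had reads but too few to test.

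Detection differed by family. Tested members made up 8 of 9 plexins, 7 of 8 ephrins, 13 of 20 semaphorins, 3 of 4 Robo receptors and 5 of 13 Eph receptors. Of the 3 Slits only SLIT2 was tested, of the 2 netrins only NTN1, and of the 5 netrin receptors only UNC5B. Neither neuropilin was tested: NRP1 had 10 reads and NRP2 15 reads over the 12 libraries. DCC, the attractive netrin receptor, had 4 reads. Among the untested Eph receptors, EPHA8 had 72 reads, EPHA10 69, EPHB2 54, EPHA4 24, EPHB1 4, EPHA7 2 and EPHA6 1. The untested semaphorins were SEMA3G with 67 reads, SEMA3D and SEMA3E with 28 each, SEMA3C with 22, SEMA5B with 2, and SEMA5A and SEMA6D with 1 each. SLIT1 had 57 reads, UNC5A 24, UNC5C 10, PLXNA4 7, EFNA5 3, SLIT3 3, ROBO4 2 and UNC5D 1. The neuropilins, co-receptors for most class 3 semaphorins, were thus at the limit of detection in all 3 lines, while plexins, which bind the membrane-bound classes directly, were among the best detected members.

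**Figure D1:**
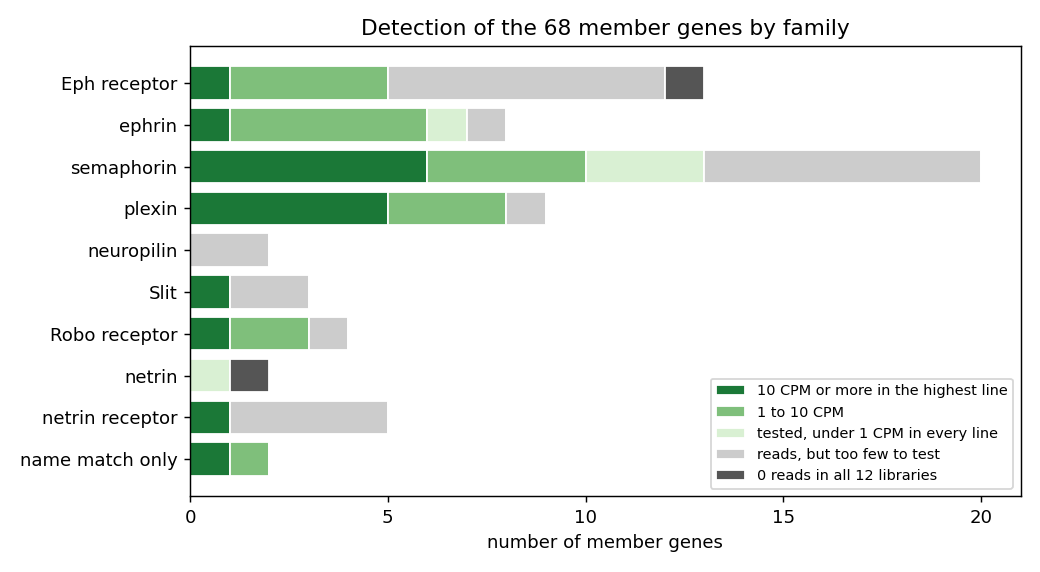
Number of member genes (horizontal axis) in each family (vertical axis), coloured by detection: mean CPM in the line where the gene is highest, tested below 1 CPM, reads but too few to test, or 0 reads. All but 1 of the 9 plexins were tested, against 5 of 13 Eph receptors and neither neuropilin.

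Levels of different genes were compared per kilobase of exon (CPM per kb, exon union of GENCODE release 29). In K562 the highest were PLXNA1 at 39.8 ± 11.5 CPM per kb (SD, n = 4) and EPHB4 at 37.7 ± 6.77, whose order lies within their spread. Leaving out UNC50, which matched by name only, SEMA4C followed at 22.6 ± 4.12, then PLXNB2 at 13.9 ± 3.76, SEMA4B at 11.3 ± 6.99 and PLXND1 at 10.1 ± 2.55, of which the last 3 overlapped within their SD. SLIT2 stood at 6.57 ± 1.70 CPM per kb. In K/VP.5 EPHB4 led at 28.8 ± 2.32 CPM per kb, with SEMA4C at 26.1 ± 4.45, PLXNB2 at 15.4 ± 2.31 and PLXNA1 at 13.2 ± 2.03. In edit-3 the order was EPHB4 at 33.1 ± 2.6, PLXNB2 at 25.9 ± 5.34, SEMA4C at 22.0 ± 9.15 and PLXNA1 at 18.9 ± 3.61. EPHB4, a receptor of ephrin-B2 best known from venous endothelium and also expressed in erythroid progenitors, was thus first, or within the spread of the first, in each line. Neighbours in these orders mostly overlapped within their SDs: EPHB4 and SEMA4C in K/VP.5, PLXNB2 and PLXNA1 in K/VP.5, and EPHB4 and PLXNB2 in edit-3.

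**Figure D2:**
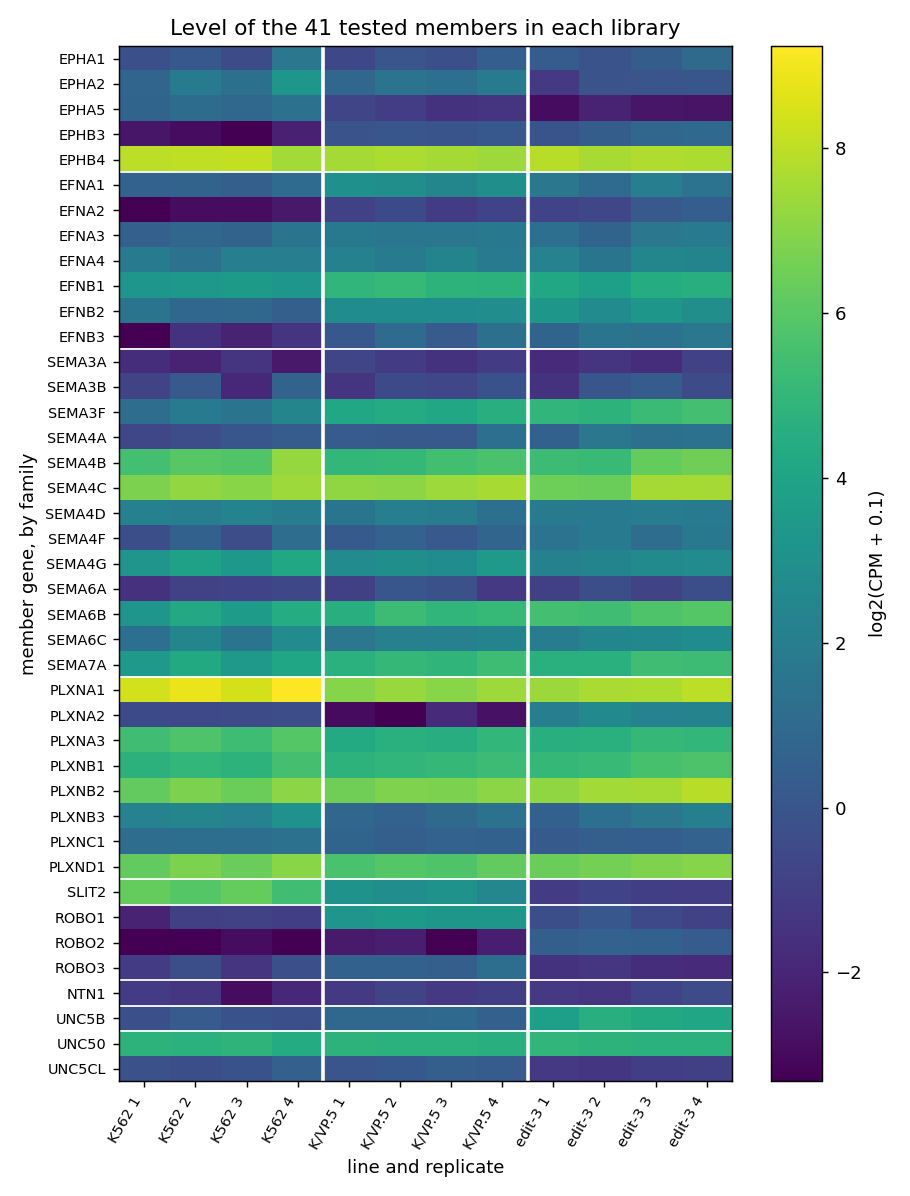
Level of the 41 tested members (one row each, ordered by family) in each of the 12 libraries (columns), as log2(CPM + 0.1) on the colour scale. SLIT2 is brightest in the K562 columns, ROBO1 in the K/VP.5 columns, and UNC5B and PLXNA2 in the edit-3 columns.

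Libraries of a line also varied in a shared way. Among the 17 members at 10 CPM or more, the median log2 deviation from the line mean was -0.35, 0.14, -0.22 and 0.31 in K562 replicates 1 to 4. It was -0.19, 0.030, -0.024 and 0.25 in K/VP.5 and -0.29, -0.13, 0.13 and 0.28 in edit-3, while the median over all tested genes was between -0.021 and 0.020 in every library. Replicate 1 was lowest and replicate 4 highest in each line. Every plexin and semaphorin among these 17 deviated upward in replicate 4 of each line. These were PLXNA1, PLXNA3, PLXNB1, PLXNB2, PLXND1, SEMA3F, SEMA4B, SEMA4C, SEMA4G, SEMA6B and SEMA7A. SLIT2, EPHB4, UNC50 and UNC5B deviated downward there. The part of this shared variation in the results was not tested.

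Each pair of lines was compared in 1 fit over all 12 libraries and the 18286 genes that passed the filter, and genes with an adjusted p under 0.05 were called changed. In K/VP.5 versus K562, 25 of 41 tested members changed (61.0%), with 15 up and 10 down, where 36.6% of all tested genes changed. At least a 2-fold change was met by 18 members, 13 higher (8.2% of all tested genes) and 5 lower (5.23%), against 13.4% of all tested genes in both directions. In edit-3 versus K/VP.5, 15 members changed, 7 higher and 8 lower, against 23.6% of all genes, and 11 of them by at least 2-fold against 8.32%. Of these 11, 4 were higher (5.15% of all genes) and 7 lower (3.18%). In edit-3 versus K562, 26 members changed, 16 higher and 10 lower, against 39.2%, and 20 by at least 2-fold against 15%. Of these 20, 12 were higher (10% of all genes) and 8 lower (4.93%). The median log2 fold change of the tested members was 0.19, 0.20 and 0.38 in the 3 comparisons, and that of all tested genes was within 0.005 of 0. The median size of the change, without its sign, was 0.98, 0.60 and 1.04 for members and 0.30, 0.23 and 0.32 for all genes. A member that passed the filter only through the line where it is high had to differ, so these counts are a description of the 41 and not of all 68.

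The ranges of the 4 libraries did not overlap for 21 members in K/VP.5 versus K562 (37.4% of all genes), for 16 in edit-3 versus K/VP.5 (26%) and for 24 in edit-3 versus K562 (34%). The 3 comparisons share lines, so their counts are not independent of each other. Of the 41 tested members, 10 changed in all 3 comparisons, 16 in 2, 4 in 1 and 11 in none. The matching shares of all tested genes were not computed, so these counts describe the members only. Only SLIT2 and EPHA5 were lower at both steps, from K562 to K/VP.5 and from K/VP.5 to edit-3, and UNC5B, ROBO2 and SEMA3F were higher at both. ROBO1, ROBO3, EFNA1 and EFNB1 were higher in K/VP.5 than in either other line. PLXNA2 and PLXND1 were lower in K/VP.5 than in K562 and higher in edit-3 than in K/VP.5.

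**Figure D3:**
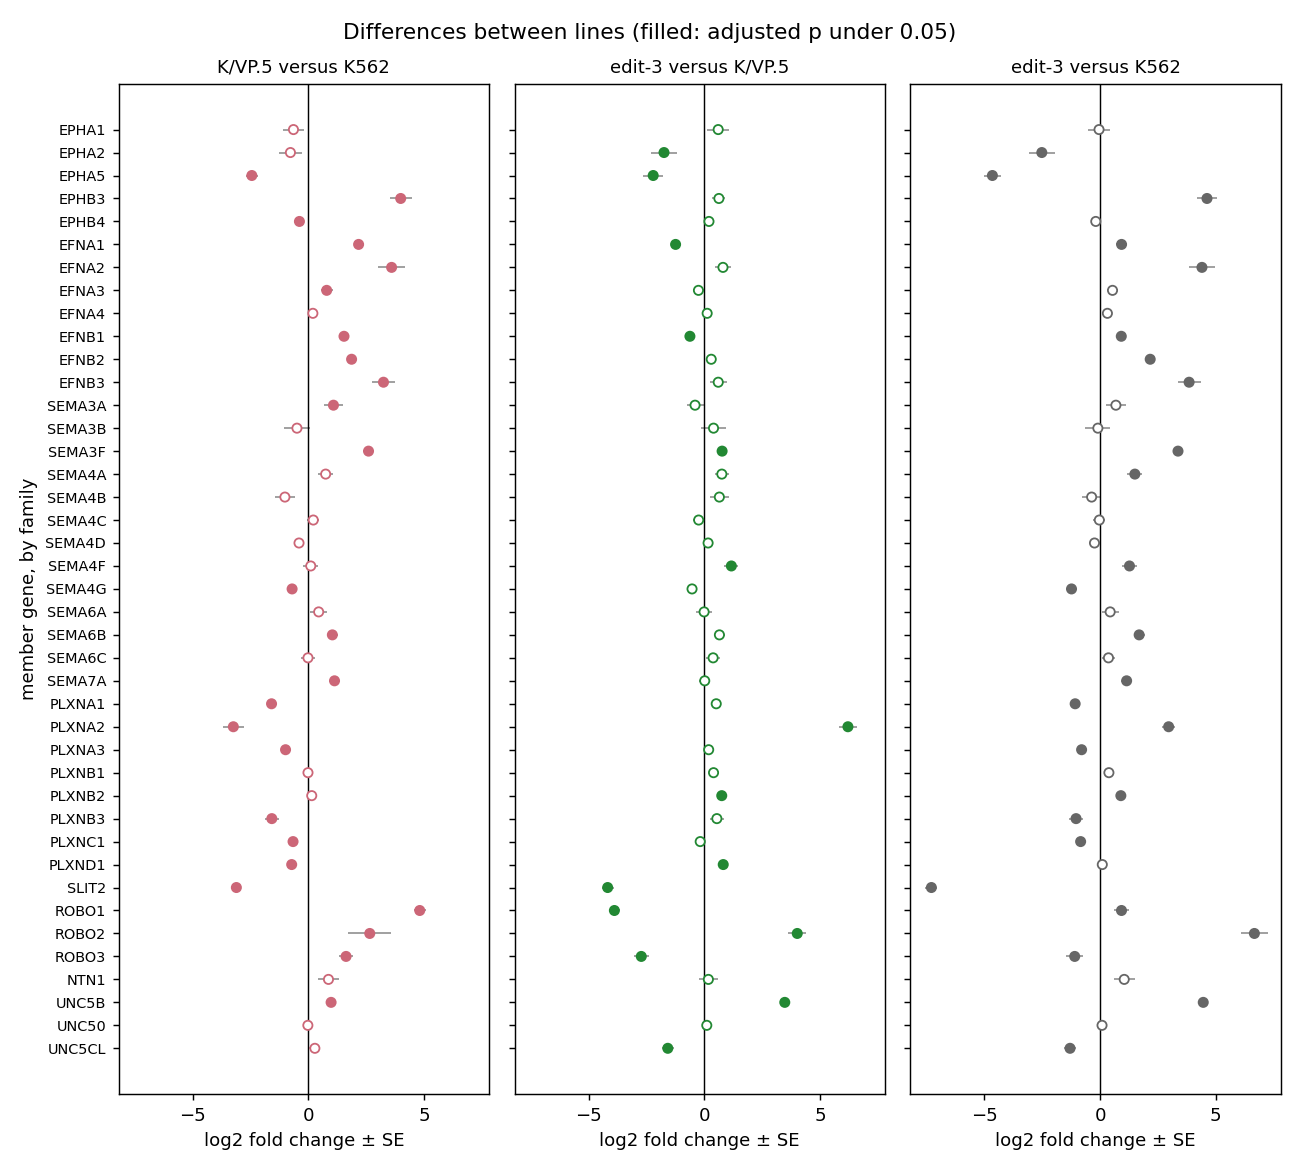
Log2 fold change (horizontal axis, bars ± SE) of each tested member (vertical axis) in the 3 comparisons; filled points have an adjusted p under 0.05. SLIT2 is furthest left in edit-3 versus K562 at -7.30, ROBO2 furthest right at 6.67, and most points of edit-3 versus K/VP.5 are open.

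Among tested members, SLIT2 had the largest fall and ROBO2 the largest rise in edit-3 versus K562. SLIT2, ENSG00000145147 at chr4:20253260-20620561 on the plus strand (GRCh38, GENCODE release 29), encodes a large secreted repellent. SLIT2 read 76.3, 59.8, 77.2 and 42.2 CPM in K562 replicates 1 to 4, 8.42, 7.08, 8.55 and 5.44 CPM in K/VP.5, and in edit-3 it read 0.356, 0.467, 0.397 and 0.392 CPM. Every K562 library lay above every K/VP.5 library, and every K/VP.5 library above every edit-3 library. SLIT2 was 8.68-fold lower in K/VP.5 than in K562 (log2 fold change of -3.12, SE 0.19, adjusted p = 1.5e-08). A further step of 18.1-fold separated edit-3 from K/VP.5 (log2 fold change of -4.18, SE 0.26, adjusted p = 4.5e-08), and the distance from K562 to edit-3 was 157-fold (log2 fold change of -7.30, SE 0.26, adjusted p = 5.3e-11). SLIT2 was the only Slit with more than 57 reads, so the summed Slit level followed it, from 64.1 CPM in K562 to 7.55 in K/VP.5 and 0.516 in edit-3. The 20 tested genes nearest to SLIT2, 10 on each side, mostly had log2 fold changes of the same sign: 19 had a negative log2 fold change in K/VP.5 versus K562 (median -0.67), 17 in edit-3 versus K/VP.5 (median -0.37) and 18 in edit-3 versus K562 (median -1.01). The change of SLIT2 itself was larger than each of these medians by over 2 log2 units. Among the members changed at least 2-fold, SLIT2 had the most same-signed neighbours in each comparison. Some others had many too, such as ROBO3 with 17 of 20 in K/VP.5 versus K562, where EPHB3 had 4, PLXNA2 5 and SEMA6B 6. No such count for all tested genes is given here. EFNB2 and SEMA7A had 16 each in edit-3 versus K562, whereas SEMA3F had 4 there.

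ROBO1, ENSG00000169855 at chr3:78597240-79767815 on the minus strand, encodes the main Slit receptor. Its level was 0.141, 0.426, 0.444 and 0.402 CPM in the 4 K562 libraries, 9.21, 11.2, 9.86 and 9.91 CPM in those of K/VP.5 and 0.711, 0.968, 0.577 and 0.452 CPM in those of edit-3. It was high in the 4 K/VP.5 libraries alone, and the ranges of all 3 lines were apart. The level in K/VP.5 was 28.1-fold above K562 (log2 fold change of 4.81, SE 0.27, adjusted p = 2.8e-09) and 14.8-fold above edit-3 (log2 fold change of -3.89, SE 0.24, adjusted p = 2.5e-08). Edit-3 was 1.90-fold above K562 (log2 fold change of 0.92, SE 0.30, adjusted p = 0.026). That last call was lost without K562 replicate 1 (log2 0.66, adjusted p = 0.067), without edit-3 replicate 2 (0.70, adjusted p = 0.084) and with only those lines in the fit (adjusted p = 0.08).

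ROBO2, ENSG00000185008, encodes a related Slit receptor and lies at chr3:75906695-77649964 on the plus strand, 947 kb from ROBO1. In the order of the replicates, ROBO2 stood at 0, 0, 0.0341 and 0 CPM in K562, at 0.0850, 0.106, 0 and 0.107 CPM in K/VP.5, and at 1.29, 1.44, 1.41 and 1.15 CPM in edit-3. These levels rest on 1 read in K562, 10 in K/VP.5 and 160 in edit-3, and all 4 edit-3 libraries stood above all others. Edit-3 was higher than K/VP.5 by 16.2-fold (log2 fold change of 4.02, SE 0.40, adjusted p = 2.9e-06). Against K562 the ratio of reads per library size was 148, with an exact 95% interval of 26.2 to 5896 (log2 fold change of 6.67, SE 0.57, adjusted p = 2.6e-07), and the fitted value was 8.33 without K562 replicate 3, which held the 1 read. In K/VP.5 versus K562 the ratio was 8.79, with an interval of 1.25 to 381, and the ranges overlapped (log2 fold change of 2.65, SE 0.92, adjusted p = 0.036). With the replicate number as a block the adjusted p of that difference was 0.055. It ran from 0.069 to 0.093 when K562 replicate 1, 2 or 4, or the same number of K/VP.5, was left out, and without K562 replicate 3 the log2 value was 4.31. The neighbouring receptor genes ROBO1 and ROBO2 therefore peaked in different lines, ROBO1 in K/VP.5 and ROBO2 in edit-3.

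ROBO3, at chr11:124865386-124881470, encodes a divergent Robo protein that modulates Slit responses in commissural axons. K562 held 0.354, 0.721, 0.273 and 0.724 CPM of ROBO3, K/VP.5 1.42, 1.42, 1.31 and 2.21 CPM and edit-3 0.259, 0.300, 0.216 and 0.181 CPM. The K/VP.5 libraries were all above those of both other lines, while the K562 and edit-3 ranges overlapped. K/VP.5 exceeded K562 by 3.09-fold (log2 fold change of 1.63, SE 0.30, adjusted p = 0.00052) and edit-3 by 6.61-fold (log2 fold change of -2.72, SE 0.33, adjusted p = 2.5e-05). Edit-3 was 2.14-fold below K562 (log2 fold change of -1.10, SE 0.37, adjusted p = 0.03), a call lost without K562 replicate 2 (log2 -0.90) or 4 (-0.92) or edit-3 replicate 3 (-1.06) or 4 (-0.99). The summed Robo level was 0.880 ± 0.315 CPM in K562, 11.7 ± 0.938 in K/VP.5 and 2.25 ± 0.393 in edit-3 (SD, n = 4). In K562 SLIT2 was thus far above the Robo genes, per kilobase as well: 6.57 CPM per kb for SLIT2 against 0.0325 for ROBO1 and 0.0737 for ROBO3. In K/VP.5 SLIT2 at 0.759 ± 0.149 and ROBO1 at 0.924 ± 0.0777 CPM per kb overlapped within their SDs, and in edit-3 ROBO2 at 0.0792, ROBO1 at 0.0622 and SLIT2 at 0.0415 CPM per kb were all low.

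**Figure D4:**
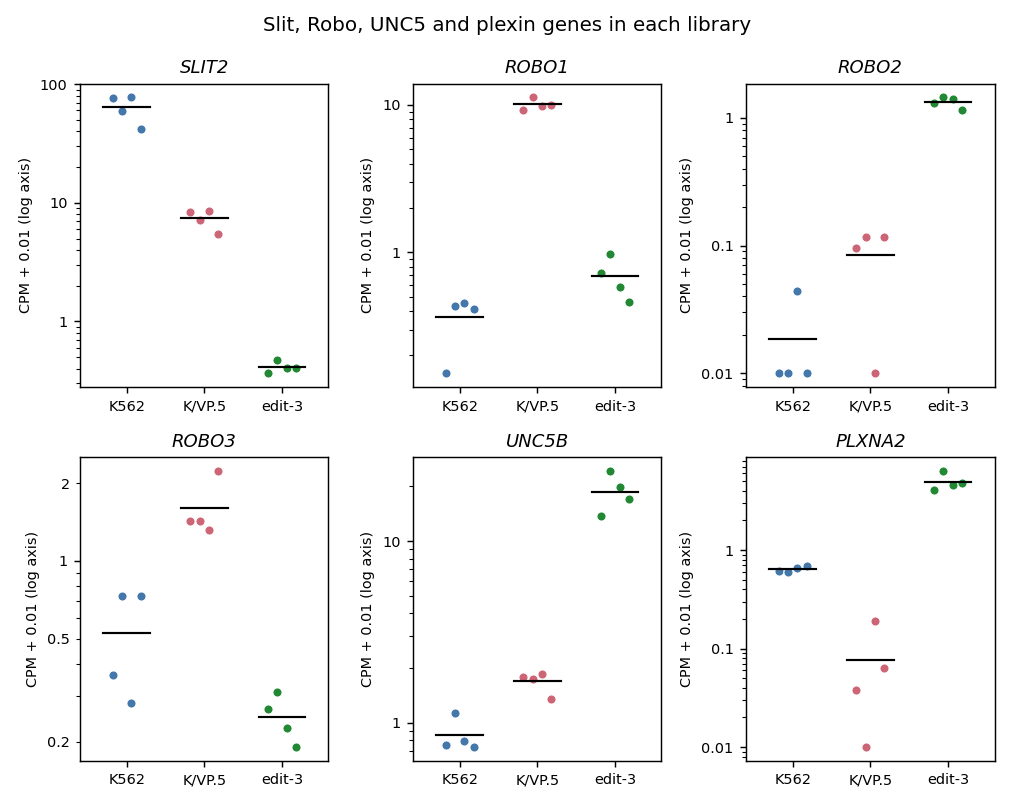
Level (vertical axis, CPM + 0.01, log scale, a different range in each panel) of 6 members in the 4 libraries of each line (points) with the line mean (bar). SLIT2 falls from K562 to K/VP.5 to edit-3, ROBO1 and ROBO3 are highest in K/VP.5, and ROBO2, UNC5B and PLXNA2 are highest in edit-3.

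The start regions of the 3 Slit and Robo genes with the widest changes are shown because SLIT2, ROBO1 and ROBO2 each peaked in a different line. Each window runs from 250 bases before to 50 bases after an annotated start and is taken from RefSeq on GRCh38.p14, 5′ to 3′ on the gene's strand, with CpG dinucleotides in capitals. The positions are chr4:20251655-20251954 on the plus strand for SLIT2, chr3:79767949-79768248 and chr3:79019410-79019709 on the minus strand for the upstream and downstream starts of ROBO1, and chr3:76310630-76310929 and chr3:77039849-77040148 on the plus strand for those of ROBO2.
SLIT2: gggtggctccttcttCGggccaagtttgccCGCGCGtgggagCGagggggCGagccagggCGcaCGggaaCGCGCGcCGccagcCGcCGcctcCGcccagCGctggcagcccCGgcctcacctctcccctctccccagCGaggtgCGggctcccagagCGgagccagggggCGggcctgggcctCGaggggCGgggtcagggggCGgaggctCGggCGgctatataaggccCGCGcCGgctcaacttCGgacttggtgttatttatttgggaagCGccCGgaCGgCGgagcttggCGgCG
ROBO1 upstream start: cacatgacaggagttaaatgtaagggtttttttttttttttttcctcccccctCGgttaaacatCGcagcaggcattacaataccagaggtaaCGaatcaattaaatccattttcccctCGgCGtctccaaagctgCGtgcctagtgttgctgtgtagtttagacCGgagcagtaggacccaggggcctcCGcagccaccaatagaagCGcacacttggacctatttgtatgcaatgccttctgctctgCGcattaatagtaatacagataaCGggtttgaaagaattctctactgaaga
ROBO1 downstream start: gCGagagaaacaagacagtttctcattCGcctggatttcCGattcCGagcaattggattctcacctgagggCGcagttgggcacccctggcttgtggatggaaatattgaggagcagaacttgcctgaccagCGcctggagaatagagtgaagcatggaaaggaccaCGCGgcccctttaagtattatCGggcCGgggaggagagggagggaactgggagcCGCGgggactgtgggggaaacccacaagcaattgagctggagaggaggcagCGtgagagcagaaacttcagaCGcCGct
ROBO2 upstream start: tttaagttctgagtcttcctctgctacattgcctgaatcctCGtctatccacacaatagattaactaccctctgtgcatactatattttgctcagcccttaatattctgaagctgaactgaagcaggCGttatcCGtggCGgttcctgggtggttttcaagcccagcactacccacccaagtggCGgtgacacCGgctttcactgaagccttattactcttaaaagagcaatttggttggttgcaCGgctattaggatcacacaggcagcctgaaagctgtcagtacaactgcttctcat
ROBO2 downstream start: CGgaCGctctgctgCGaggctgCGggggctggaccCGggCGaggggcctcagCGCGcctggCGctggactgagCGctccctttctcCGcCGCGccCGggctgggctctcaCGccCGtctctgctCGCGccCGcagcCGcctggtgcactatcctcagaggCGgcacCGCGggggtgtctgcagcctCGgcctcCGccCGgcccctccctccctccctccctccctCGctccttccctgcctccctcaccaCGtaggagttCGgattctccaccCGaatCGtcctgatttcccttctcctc
The SLIT2 window holds 36 CpG, more than 87.3% of the 35114 windows in the table. ROBO1 has 11 in its upstream and 15 in its downstream window. ROBO2 has 7 and 31, so its starts differ more in CpG content than those of ROBO1. Upstream and downstream give only the order of a gene's RefSeq windows. RefSeq starts differ from the GENCODE spans given above: the SLIT2 window lies before its span, and the upstream ROBO2 window lies inside its span. Gene counts do not show which start was used. Over 91 windows of 59 members the median was 22 CpG, against 14 for all windows. AGATAA, the core of a GATA factor motif, was searched on both strands as K562 is an erythroid line: 8 member windows (8.79%) hold it against 10.3% of all windows, and among the 5 shown only the upstream ROBO1 window does. CACGTG, an E-box, is in 4 member windows (4.4%) against 7.26% of all and in none of the 5. A match describes these letters only.

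Of the 7 netrin and netrin receptor members, NTN1 and UNC5B were tested. NTN1, encoding netrin-1, read 0.211 ± 0.143 CPM in K562, 0.391 ± 0.0768 in K/VP.5 and 0.439 ± 0.167 in edit-3 (SD, n = 4). It did not pass in any comparison, although without K562 replicate 1 it passed in edit-3 versus K562 (log2 1.39, adjusted p = 0.043). UNC5B, ENSG00000107731 at chr10:71212570-71302864, encodes a repulsive netrin receptor also known from endothelium. UNC5B read 0.742, 1.11, 0.785 and 0.724 CPM in K562 replicates 1 to 4, 1.79, 1.74, 1.86 and 1.33 CPM in K/VP.5, and in edit-3 it read 13.7, 24.2, 19.8 and 17.0 CPM. The 3 ranges were apart, with all edit-3 libraries far above the rest. Edit-3 exceeded K/VP.5 by 11.2-fold (log2 fold change of 3.48, SE 0.20, adjusted p = 8.2e-09) and K562 by 22.0-fold (log2 fold change of 4.46, SE 0.21, adjusted p = 4.8e-10). K/VP.5 was 1.97-fold above K562 (log2 fold change of 0.98, SE 0.22, adjusted p = 0.0025). Per kilobase, UNC5B stood at 2.73 ± 0.652 CPM per kb in edit-3, against 0.0688 ± 0.0262 for its ligand gene NTN1.

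Of the 7 tested ephrin genes, 6 were higher in K/VP.5 than in K562, where 18.3% of all tested genes were higher, and EFNA4 did not pass. Of these 6, 5 were higher by at least 2-fold, as were 8.2% of all tested genes. In edit-3 versus K562, 5 of 7 were higher and none lower, where 20.6% of all tested genes were higher. EFNA2 and EFNB3 were near 0 in K562 and passed the filter only through the other lines, so they had to differ from K562. The counts against K562 are thus a description of the tested ephrin genes only. Between edit-3 and K/VP.5 only EFNA1 and EFNB1 changed, both lower in edit-3, where 10.6% of all tested genes were lower. Summed over the family the level was 19.3 ± 0.963 CPM in K562, 52.9 ± 3.58 in K/VP.5 and 41.2 ± 8.13 in edit-3 (SD, n = 4). EFNB1, which took the largest part, encodes ephrin-B1 and lies at chrX:68828997-68842147. Its level was 9.72, 10.4, 11.4 and 9.46 CPM in the 4 K562 libraries, 30.3, 34.4, 27.9 and 26.4 CPM in those of K/VP.5 and 18.6, 13.6, 21.5 and 23.7 CPM in those of edit-3. The ranges of the 3 lines were apart, with K/VP.5 highest and K562 lowest. The difference of K/VP.5 from K562 was 2.9-fold (log2 fold change of 1.54, SE 0.15, adjusted p = 1.3e-06), that of edit-3 from K562 1.89-fold (log2 fold change of 0.92, SE 0.15, adjusted p = 0.00017), and edit-3 was 1.54-fold below K/VP.5 (log2 fold change of -0.62, SE 0.15, adjusted p = 0.0058).

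EFNA1, at chr1:155127460-155134857, encodes ephrin-A1, a ligand of EPHA2. In the order of the replicates, EFNA1 stood at 1.45, 1.47, 1.30 and 1.97 CPM in K562, at 7.77, 7.19, 5.31 and 7.49 CPM in K/VP.5, and at 3.04, 1.97, 4.11 and 2.65 CPM in edit-3. K/VP.5 stood above both other lines in every library, and 1 edit-3 library lay at the level of the highest K562 library. EFNA1 was 4.50-fold higher in K/VP.5 than in K562 (log2 fold change of 2.17, SE 0.22, adjusted p = 1.9e-06) and 2.36-fold lower in edit-3 than in K/VP.5 (log2 fold change of -1.24, SE 0.21, adjusted p = 0.00045). Edit-3 remained above K562 (log2 fold change of 0.93, SE 0.22, adjusted p = 0.0039). EFNB2, at chr13:106489731-106535662, encodes ephrin-B2, the ligand of EPHB4. K562 held 2.72, 1.74, 1.78 and 1.29 CPM of EFNB2, K/VP.5 6.77, 6.80, 6.88 and 7.06 CPM and edit-3 9.92, 6.61, 9.99 and 7.39 CPM. All K562 libraries were below all others, and the K/VP.5 and edit-3 ranges overlapped. Its level was 3.64-fold higher in K/VP.5 (log2 fold change of 1.87, SE 0.20, adjusted p = 3.9e-06) and 4.49-fold higher in edit-3 (log2 fold change of 2.17, SE 0.20, adjusted p = 7.5e-07) than in K562. An antisense gene covers 26.2% of EFNB2 exon sequence, and without a stated strand setting the reads of the pair cannot be separated.

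EFNB3 and EFNA2 were near 0 in K562 and higher in both derived lines. EFNB3, at chr17:7705202-7711378, encodes ephrin-B3, a midline repellent. EFNB3 read 0, 0.262, 0.137 and 0.282 CPM in K562 replicates 1 to 4, 0.964, 1.98, 1.13 and 2.43 CPM in K/VP.5, and in edit-3 it read 1.55, 2.77, 2.52 and 3.07 CPM. K562 was lowest in every library, and the other lines overlapped. The difference from K562 was 9.47-fold for K/VP.5 (log2 fold change of 3.24, SE 0.51, adjusted p = 0.00016) and 14.4-fold for edit-3 (log2 fold change of 3.85, SE 0.50, adjusted p = 2.4e-05). EFNA2, at chr19:1286154-1300237, encodes ephrin-A2, a cue in retinal mapping. Its level was 0, 0.0328, 0.0341 and 0.0805 CPM in the 4 K562 libraries, 0.454, 0.602, 0.364 and 0.480 CPM in those of K/VP.5 and 0.485, 0.534, 1.05 and 1.27 CPM in those of edit-3. With 4 reads in K562 against 61 in K/VP.5 and 102 in edit-3, the K562 range was again apart from both others. The fitted difference was 12.1-fold for K/VP.5 (log2 fold change of 3.60, SE 0.59, adjusted p = 0.00021) and 21.2-fold for edit-3 (log2 fold change of 4.4, SE 0.55, adjusted p = 1.4e-05). Without edit-3 replicate 1, EFNA2 also passed as higher in edit-3 than in K/VP.5 (log2 1.0, adjusted p = 0.044).

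EFNA3 and EFNA4, neighbours of EFNA1 on chromosome 1 within 57.9 kb, moved less. EFNA3, encoding ephrin-A3, was 1.73-fold higher in K/VP.5 than in K562 (log2 fold change of 0.79, SE 0.25, adjusted p = 0.023), a call lost without K562 replicate 1 (log2 0.67), 2 (0.75) or 3 (0.71), and without replicate 1 or 4 of K/VP.5 (0.76 each). Against K562 edit-3 passed for EFNA3 only without K562 replicate 4 (0.79) or edit-3 replicate 2 (0.72). EFNA4, encoding ephrin-A4, stood at 3.60 ± 0.706, 4.11 ± 0.776 and 4.47 ± 1.10 CPM in K562, K/VP.5 and edit-3 and did not pass. A readthrough gene shares 44.7% of EFNA3 and 15% of EFNA4 exon sequence, so their counts are uncertain.

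The Eph receptors were mixed. Of the 5 tested, EPHB3 was higher in both derived lines, EPHA5 and EPHA2 were lower in edit-3, EPHB4 changed little and EPHA1 did not pass. EPHB3, ENSG00000182580 at chr3:184561784-184582409, encodes a receptor of B-class ephrins. In the order of the replicates, EPHB3 stood at 0.0707, 0.0328, 0 and 0.121 CPM in K562, at 0.822, 0.921, 0.873 and 1.01 CPM in K/VP.5, and at 0.873, 1.2, 1.69 and 1.87 CPM in edit-3. All K562 libraries were far below all others, on 6 reads in total, and the other ranges overlapped. The fitted difference from K562 was 15.9-fold for K/VP.5 (log2 fold change of 3.99, SE 0.47, adjusted p = 8.7e-06) and 24.6-fold for edit-3 (log2 fold change of 4.62, SE 0.45, adjusted p = 1.1e-06), with log2 values of 4.58 and 5.21 without K562 replicate 4. Without edit-3 replicate 1, EPHB3 also passed in edit-3 versus K/VP.5 (log2 0.80, adjusted p = 0.041).

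EPHA5, ENSG00000145242 at chr4:65319563-65670495, encodes a receptor of A-class ephrins with known roles in brain. K562 held 1.56, 2.1, 1.74 and 2.49 CPM of EPHA5, K/VP.5 0.510, 0.390, 0.255 and 0.267 CPM and edit-3 0.0323, 0.133, 0.0721 and 0.0603 CPM. The 3 ranges were apart and fell from K562 to K/VP.5 to edit-3, as for SLIT2, which lies on the same chromosome. EPHA5 was 5.46-fold lower in K/VP.5 than in K562 (log2 fold change of -2.45, SE 0.27, adjusted p = 4.8e-06), 4.63-fold lower in edit-3 than in K/VP.5 (log2 fold change of -2.21, SE 0.43, adjusted p = 0.0015) and 25.3-fold lower in edit-3 than in K562 (log2 fold change of -4.66, SE 0.35, adjusted p = 7.6e-08). The edit-3 value rests on 9 reads. Of the 20 tested genes nearest to EPHA5, 10 had the same sign in K/VP.5 versus K562 and 12 in edit-3 versus K/VP.5. In edit-3 versus K562, 15 did, with a median of -0.058.

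EPHA2, at chr1:16124337-16156087, encodes the receptor of ephrin-A1. EPHA2 read 1.63, 3.54, 2.39 and 9.82 CPM in K562 replicates 1 to 4, 1.67, 2.62, 2.29 and 3.44 CPM in K/VP.5, and in edit-3 it read 0.323, 0.834, 0.901 and 0.935 CPM. All edit-3 libraries were below all others, and K562 replicate 4 was far above the other K562 libraries. Edit-3 was 5.74-fold below K562 (log2 fold change of -2.52, SE 0.55, adjusted p = 0.003), with a log2 value of -1.75 without K562 replicate 4. Against K/VP.5 edit-3 was 3.34-fold lower (log2 fold change of -1.74, SE 0.56, adjusted p = 0.04). That call was lost without any filter on low counts (adjusted p = 0.12) and without K/VP.5 replicate 2 (log2 -1.74), 3 (-1.78) or 4 (-1.56) or edit-3 replicate 1 (-1.49), 2 (-1.80), 3 (-1.84) or 4 (-1.89). It was kept without K/VP.5 replicate 1.

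EPHB4 had the highest counts of the family, at 243 ± 43.6 CPM in K562, 185 ± 15.0 in K/VP.5 and 213 ± 16.7 in edit-3 (SD, n = 4). It was 1.31-fold lower in K/VP.5 than in K562 (log2 fold change of -0.39, SE 0.12, adjusted p = 0.016), a call lost without K562 replicate 2 (log2 -0.35) or 3 (-0.33) and without replicate 4 of K/VP.5 (-0.34). It passed as lower in edit-3 than in K562 only without K562 replicate 4 (log2 -0.31, adjusted p = 0.006). EPHA1, a receptor of A-class ephrins found in epithelia, stood at 1.37 ± 1.16, 0.851 ± 0.281 and 1.30 ± 0.475 CPM and did not pass in any comparison. The ligand EFNB2 thus was higher in K/VP.5 where its receptor EPHB4 was slightly lower, and EFNA1 was highest in K/VP.5, where EPHA2 did not differ from K562 past the threshold (log2 fold change of -0.78, SE 0.49, adjusted p = 0.25, and -0.01 on that scale without K562 replicate 4).

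**Figure D5:**
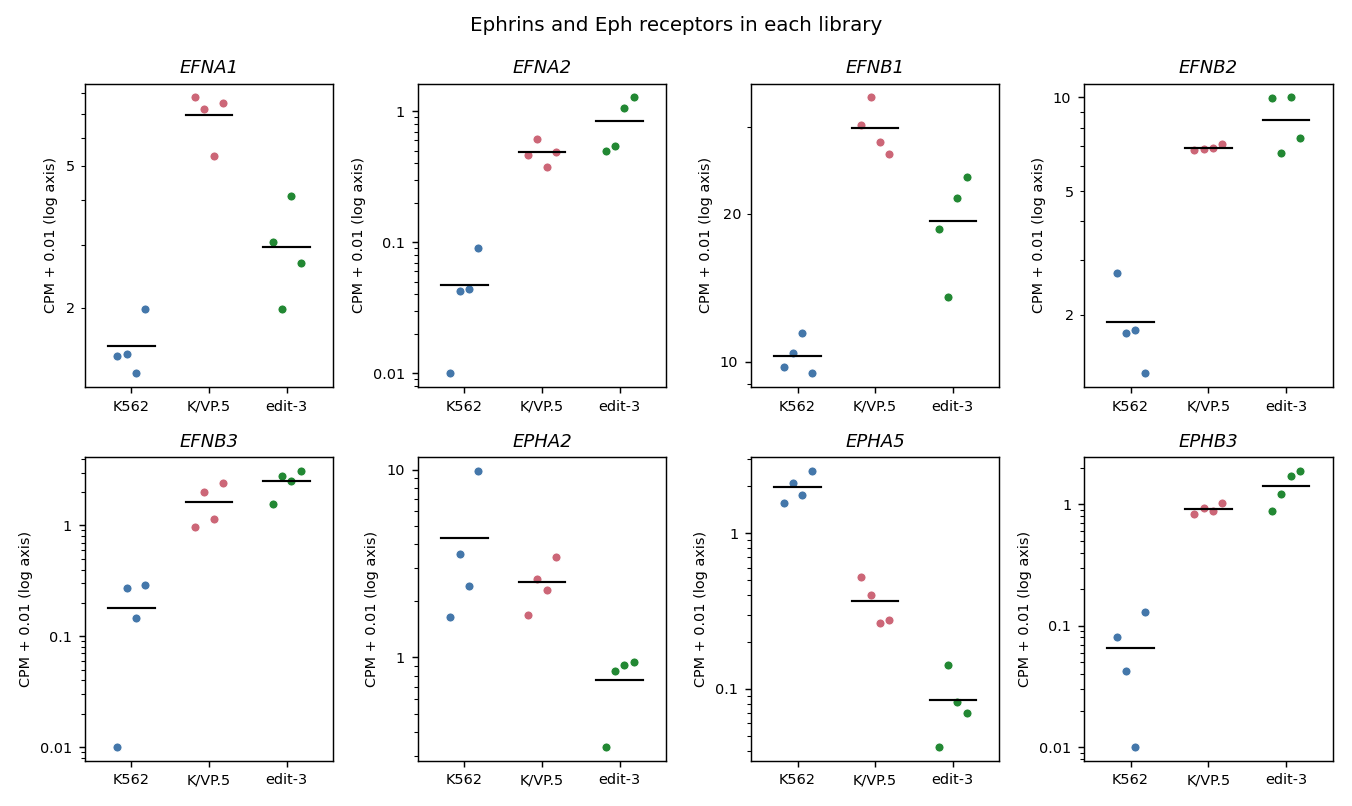
Level (vertical axis, CPM + 0.01, log scale, a different range in each panel) of 5 ephrins and 3 Eph receptors in the 4 libraries of each line (points) with the line mean (bar). The 5 ephrins and EPHB3 are lowest in K562, while EPHA5 and EPHA2 are lowest in edit-3.

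Semaphorins split by gene. In K/VP.5 versus K562, 4 of 13 tested were higher and SEMA4G lower, where 18.3% of all tested genes went each way. In edit-3 versus K/VP.5 only SEMA3F and SEMA4F changed, both higher in edit-3, where 12.9% of all genes were higher. In edit-3 versus K562, 5 were higher (20.6% of all genes) and SEMA4G lower (18.6%). Changed in either direction were 38.5%, 15.4% and 46.2% of the 13, beside 36.6%, 23.6% and 39.2% of all tested genes. The family counts are thus a description only. SEMA3F, ENSG00000001617 at chr3:50155045-50189075, encodes a secreted repellent that signals through NRP2. Its level was 2.16, 3.57, 2.77 and 5.15 CPM in the 4 K562 libraries, 18.7, 21.4, 18.1 and 24.1 CPM in those of K/VP.5 and 30.3, 27.8, 37.6 and 44.4 CPM in those of edit-3. The 3 ranges were apart and increased from K562 to K/VP.5 to edit-3. SEMA3F was 6.05-fold higher in K/VP.5 than in K562 (log2 fold change of 2.6, SE 0.23, adjusted p = 1e-06) and 10.3-fold higher in edit-3 than in K562 (log2 fold change of 3.37, SE 0.24, adjusted p = 8e-08). The step from K/VP.5 to edit-3 was 1.71-fold (log2 fold change of 0.77, SE 0.21, adjusted p = 0.015), and its call was lost without any filter on low counts (adjusted p = 0.061), without K/VP.5 replicate 1 or 3 (log2 0.71 each) and without edit-3 replicate 4 (0.62). SEMA3B, a neighbour of SEMA3F at a gap of 78.5 kb, is a related secreted ligand and did not pass, at 0.801 ± 0.585, 0.558 ± 0.213 and 0.745 ± 0.388 CPM in K562, K/VP.5 and edit-3.

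SEMA3A, at chr7:83955777-84492724, encodes the founding secreted semaphorin, a ligand of NRP1. In the order of the replicates, SEMA3A stood at 0.212, 0.131, 0.273 and 0.0805 CPM in K562, at 0.510, 0.354, 0.255 and 0.373 CPM in K/VP.5, and at 0.194, 0.267, 0.216 and 0.452 CPM in edit-3. The K562 and K/VP.5 ranges overlapped, since K562 replicate 3 lay above K/VP.5 replicate 3. K/VP.5 was 2.12-fold higher than K562 (log2 fold change of 1.08, SE 0.40, adjusted p = 0.049). The call was lost with the replicate number as a block (log2 1.06, adjusted p = 0.072), under the DESeq2 test (adjusted p = 0.096), with every gene kept (adjusted p = 0.082) and without K562 replicate 1 (log2 1.18), 2 (0.96) or 4 (0.87), and without K/VP.5 replicate 1 (0.89), 2 (1.11) or 4 (1.09).

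SEMA7A, at chr15:74409289-74433958, encodes a lipid-anchored semaphorin that carries a blood group antigen on red cells. K562 held 11, 19.8, 11 and 17.3 CPM of SEMA7A, K/VP.5 26.1, 33.1, 29.8 and 40.0 CPM and edit-3 25.1, 25.3, 41.4 and 39.1 CPM. The K562 range was below both others, which overlapped. The difference was 2.18-fold for K/VP.5 (log2 fold change of 1.13, SE 0.23, adjusted p = 0.0022) and 2.21-fold for edit-3 (log2 fold change of 1.15, SE 0.24, adjusted p = 0.0018). SEMA6B, at chr19:4542593-4559808, encodes a membrane-spanning ligand of A-type plexins. SEMA6B read 9.72, 19.3, 12.2 and 21.6 CPM in K562 replicates 1 to 4, 24.5, 39.2, 30.7 and 34.1 CPM in K/VP.5, and in edit-3 it read 44.8, 41.9, 54.8 and 60.7 CPM. The 3 ranges were apart, with edit-3 highest. K/VP.5 was 2.05-fold above K562 (log2 fold change of 1.03, SE 0.24, adjusted p = 0.0042) and edit-3 3.22-fold above K562 (log2 fold change of 1.69, SE 0.24, adjusted p = 1e-04). Between edit-3 and K/VP.5 the value was log2 fold change of 0.65, SE 0.23, adjusted p = 0.06, and it passed under the DESeq2 test (adjusted p = 0.02) and with only those lines in the fit (adjusted p = 0.0082).

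Class 4 semaphorins are membrane-bound ligands of B-type plexins and other receptors, and 6 of them were tested. SEMA4F, at chr2:74654228-74683853, has been studied in neurons and glia. Its level was 0.707, 1.38, 0.683 and 2.13 CPM in the 4 K562 libraries, 1.08, 1.45, 1.06 and 1.60 CPM in those of K/VP.5 and 2.68, 3.60, 2.16 and 3.26 CPM in those of edit-3. Edit-3 was above both other lines in every library. SEMA4F was 2.25-fold higher in edit-3 than in K/VP.5 (log2 fold change of 1.17, SE 0.31, adjusted p = 0.012) and 2.41-fold higher than in K562 (log2 fold change of 1.27, SE 0.31, adjusted p = 0.0044). SEMA4A, at chr1:156147366-156177752, is known from immune cells and retina. In the order of the replicates, SEMA4A stood at 0.530, 0.688, 0.922 and 1.17 CPM in K562, at 1.11, 1.03, 1.02 and 2.29 CPM in K/VP.5, and at 1.39, 3.0, 2.38 and 2.56 CPM in edit-3. Edit-3 was above K562 in every library, and K/VP.5 overlapped both. The change passed in edit-3 versus K562, at 2.83-fold (log2 fold change of 1.5, SE 0.33, adjusted p = 0.002). With the replicate number as a block it also passed in K/VP.5 versus K562 (log2 0.73, adjusted p = 0.039). In edit-3 versus K/VP.5 it passed without K/VP.5 replicate 4 (log2 1.12) or edit-3 replicate 1 (0.94).

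SEMA4G, at chr10:100969518-100985871, went the other way. K562 held 9.37, 14.4, 10.3 and 18.3 CPM of SEMA4G, K/VP.5 6.60, 7.44, 6.88 and 11.1 CPM and edit-3 4.46, 5.01, 6.06 and 6.66 CPM. Edit-3 was below K562 in every library, and K/VP.5 overlapped both. The fall from K562 to edit-3 was 2.36-fold (log2 fold change of -1.24, SE 0.23, adjusted p = 0.00049). In K/VP.5 versus K562 it was 1.63-fold (log2 fold change of -0.71, SE 0.22, adjusted p = 0.022), a call lost without K562 replicate 2 (log2 -0.66) or 4 (-0.51), and without K/VP.5 replicate 1 (-0.63), 2 (-0.67) or 3 (-0.64). MRPL43, on the opposite strand, covers 22.3% of SEMA4G exon sequence, so its count is uncertain.

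SEMA4B, SEMA4C and SEMA4D, known from immune cells and nerve, did not pass in any comparison. SEMA4B stood at 78.9 ± 49.0 CPM in K562, 38.9 ± 8.29 in K/VP.5 and 61.1 ± 27.5 in edit-3 (SD, n = 4). With the replicate number as a block SEMA4B passed as lower in K/VP.5 than in K562 (log2 -0.89, adjusted p = 0.013). SEMA4C was one of the best expressed members, at 139 ± 25.4, 160.5 ± 27.4 and 136 ± 56.3 CPM, and edit-3 replicates 1 and 2 read 88.5 and 85.1 CPM where replicates 3 and 4 read 185 and 184. SEMA4D, the main ligand of PLXNB1, stood at 4.25 ± 0.451, 3.22 ± 0.818 and 3.59 ± 0.196 CPM. It passed as lower in K/VP.5 than in K562 with the replicate number as a block (log2 -0.42, adjusted p = 0.046) and without K/VP.5 replicate 2 (-0.53). SEMA6A and SEMA6C, membrane-spanning class 6 ligands, did not pass, with SEMA6A at 0.437 to 0.607 CPM and SEMA6C at 4.15 to 5.41 CPM as the range of line means.

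Of the 8 tested plexins, the semaphorin receptors, 6 were lower in K/VP.5 than in K562, where 18.3% of all tested genes were lower, and PLXNB1 and PLXNB2 did not pass. From K/VP.5 to edit-3, 3 were higher and none lower, where 12.9% of all genes were higher. In edit-3 versus K562, 2 were higher (20.6% of all genes) and 4 lower (18.6%). Their summed level was 727 ± 197 CPM in K562, 376 ± 58.3 in K/VP.5 and 580 ± 109 in edit-3 (SD, n = 4). PLXNA1, ENSG00000114554 at chr3:126988594-127037392, a co-receptor for class 3 and a receptor for class 6 semaphorins, gave most of that sum in K562. PLXNA1 read 331, 461, 348 and 604 CPM in K562 replicates 1 to 4, 125, 156, 126 and 169.8 CPM in K/VP.5, and in edit-3 it read 162, 198, 208 and 258 CPM. All K562 libraries were above all others, and the K/VP.5 and edit-3 ranges overlapped. PLXNA1 was 3.02-fold lower in K/VP.5 (log2 fold change of -1.60, SE 0.20, adjusted p = 3.8e-05) and 2.11-fold lower in edit-3 (log2 fold change of -1.08, SE 0.20, adjusted p = 0.00074) than in K562. For edit-3 versus K/VP.5 the value was log2 fold change of 0.52, SE 0.20, adjusted p = 0.078, which passed under the DESeq2 test (adjusted p = 0.035), with only those lines in the fit (adjusted p = 0.021) and without edit-3 replicate 1 (log2 0.62).

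PLXNA2, ENSG00000076356 at chr1:208022242-208244320, encodes a related receptor and had the largest difference between edit-3 and K/VP.5 among all tested members. Its level was 0.601, 0.590, 0.649 and 0.684 CPM in the 4 K562 libraries, 0.0283, 0, 0.182 and 0.0533 CPM in those of K/VP.5 and 4.07, 6.31, 4.58 and 4.79 CPM in those of edit-3. The 3 ranges were apart, with K/VP.5 lowest on 8 reads in total and edit-3 highest. Edit-3 exceeded K/VP.5 by a fitted 74.1-fold (log2 fold change of 6.21, SE 0.38, adjusted p = 2.1e-08), with a log2 value of 7.20 without K/VP.5 replicate 3, which held most of those reads. K/VP.5 was below K562 by 9.50-fold (log2 fold change of -3.25, SE 0.46, adjusted p = 5e-05), or -4.24 on the log2 scale without that library. Edit-3 was 7.8-fold above K562 (log2 fold change of 2.96, SE 0.28, adjusted p = 7.2e-07). Of the 20 tested genes nearest to PLXNA2, 5 had the same sign in K/VP.5 versus K562 and 13 in edit-3 versus K/VP.5. In edit-3 versus K562, 14 did, with a median of 0.51.

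PLXNB3, at chrX:153764196-153779346, encodes a receptor for SEMA5A, which had 1 read. In the order of the replicates, PLXNB3 stood at 4.70, 5.21, 4.68 and 8.17 CPM in K562, at 1.67, 1.45, 1.93 and 2.48 CPM in K/VP.5, and at 1.39, 2.34, 3.1 and 4.19 CPM in edit-3. All K562 libraries were above all others. PLXNB3 was 3.0-fold lower in K/VP.5 (log2 fold change of -1.58, SE 0.30, adjusted p = 0.00068) and 2.06-fold lower in edit-3 (log2 fold change of -1.04, SE 0.29, adjusted p = 0.01) than in K562, and without edit-3 replicate 1 it passed as higher in edit-3 than in K/VP.5 (log2 0.76). SRPK3 on the same strand shares 20.4% of its exon sequence, so the count is uncertain. PLXNA3, a neighbour on the X chromosome at a gap of 679 kb and a receptor for SEMA3F, was 1.99-fold lower in K/VP.5 (log2 fold change of -0.99, SE 0.17, adjusted p = 0.00033) and 1.74-fold lower in edit-3 (log2 fold change of -0.80, SE 0.17, adjusted p = 0.0016) than in K562. Of the 20 tested genes nearest to PLXNB3, 16 and 15 had the same sign in these comparisons, with medians of -0.66 and -0.77.

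PLXNC1, the receptor of SEMA7A, was lower in K/VP.5 (log2 fold change of -0.67, SE 0.15, adjusted p = 0.0026) and edit-3 (log2 fold change of -0.84, SE 0.15, adjusted p = 0.00041) than in K562, with means of 2.28 ± 0.147, 1.43 ± 0.103 and 1.27 ± 0.157 CPM in K562, K/VP.5 and edit-3. Its ligand SEMA7A was higher in both of those lines. PLXND1, known as a vascular semaphorin receptor, was lower in K/VP.5 than in K562 (log2 fold change of -0.73, SE 0.18, adjusted p = 0.0074) and higher in edit-3 than in K/VP.5 (log2 fold change of 0.82, SE 0.18, adjusted p = 0.0057). Its means were 98.6 ± 24.8 CPM in K562, 59.6 ± 11.4 in K/VP.5 and 105 ± 17.7 in edit-3. PLXNB2, a receptor for class 4 semaphorins, was higher in edit-3 than in K/VP.5 (log2 fold change of 0.75, SE 0.19, adjusted p = 0.013) and in K562 (log2 fold change of 0.90, SE 0.19, adjusted p = 0.0024), at 101 ± 27.3, 111 ± 16.8 and 188 ± 38.7 CPM. The first of these calls was lost without a filter on low counts (adjusted p = 0.06). PLXNB1, the SEMA4D receptor, stood at 32.9 ± 8.66, 32.4 ± 4.69 and 42.8 ± 9.75 CPM and did not pass. Edit-3 versus K562 passed for PLXNB1 without K562 replicate 4 (log2 0.57) and with the replicate number as a block (0.38), and edit-3 versus K/VP.5 with that block (0.39).

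The genes that matched by name alone differed from each other. UNC50 read 25.9 ± 3.72 CPM in K562, 25.5 ± 1.66 in K/VP.5 and 27.5 ± 2.56 in edit-3 and did not pass in any comparison. UNC5CL, at chr6:41026911-41039217, was low in edit-3. K562 held 0.778, 0.721, 0.785 and 1.33 CPM of UNC5CL, K/VP.5 0.879, 0.992, 1.31 and 1.17 CPM and edit-3 0.323, 0.300, 0.397 and 0.422 CPM. All edit-3 libraries were below all others. The difference was 2.99-fold from K/VP.5 (log2 fold change of -1.58, SE 0.26, adjusted p = 0.00037) and 2.46-fold from K562 (log2 fold change of -1.30, SE 0.27, adjusted p = 0.0011). OARD1 overlaps 23.8% of UNC5CL exon sequence, so that count is uncertain.

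Other genes of these pathways, from a list of 74 partners and signalling proteins of which 52 were tested, gave 31 changes in K/VP.5 versus K562 (22 higher, 9 lower), 25 in edit-3 versus K/VP.5 (15 higher, 10 lower) and 29 in edit-3 versus K562 (24 higher, 5 lower). These were 59.6%, 48.1% and 55.8% of those tested, beside 36.6%, 23.6% and 39.2% of all tested genes, with median log2 fold changes of 0.13, 0.14 and 0.31. A 2-fold change was reached by 14, 10 and 15 of the 52, where 13.4%, 8.32% and 15% of all tested genes reached it. Among 11 tested ligand and receptor partners, 8, 7 and 7 changed, and among 17 tested semaphorin and plexin effectors 9, 7 and 8. Slit and Robo effectors gave 5, 3 and 3 of 9, netrin effectors 3, 3 and 4 of 6, and Eph and ephrin effectors 6, 5 and 7 of 9. With so few genes in each list, and 3 of 9 being near the share of all genes, these counts are given as a description only.

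Among the largest changes of that list were the following. GRIP1, a scaffold that binds B-class ephrins, had 1 read in K562, 57 in K/VP.5 and 4 in edit-3, a ratio of 50.1 between K/VP.5 and K562 with an exact 95% interval of 8.64 to 2013 (adjusted p = 8.9e-05). It was lower in edit-3 than in K/VP.5 (log2 fold change of -3.60, SE 0.61, adjusted p = 5e-04). RGMA, a ligand of the netrin receptor relative neogenin, was higher in K/VP.5 than in K562 (2.86, SE 0.32, adjusted p = 4.7e-06). DAPK1, a death-associated kinase linked to UNC5 receptors, was lower in K/VP.5 than in K562 (-1.33, SE 0.16), in edit-3 than in K/VP.5 (-2.06, SE 0.17) and in edit-3 than in K562 (-3.39, SE 0.17, adjusted p = 2.6e-09). UNC5B was higher in each of these comparisons. GPC1, a heparan sulfate proteoglycan that binds Slits, was higher in edit-3 than in K/VP.5 (3.75, SE 0.21, adjusted p = 1.1e-08) and K562 (4.60, SE 0.23, adjusted p = 8.4e-10). FYN, a kinase downstream of plexins, was higher in edit-3 than in K/VP.5 (3.69, SE 0.23, adjusted p = 3.1e-08). DPYSL5, a collapsin response mediator, was higher in edit-3 than in K562 (5.22, SE 0.16, adjusted p = 6.4e-12), where INPPL1, a phosphatase recruited by EPHA2, was lower (-0.81, SE 0.10, adjusted p = 1.8e-05).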

How the data were processed

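RNA was measured by sequencing in 12 libraries, 4 from each of 3 lines, grouped by their labels. Raw read counts per gene were deposited by the authors. Per the submitters' processing notes, HISAT2 2.1.0 and featureCounts of Subread 1.5.1 were used with GRCh38. Not given in the sources used here are the release of the annotation, whether strand was used, and the handling of multiply mapping reads. A free-text description that names the parental line for every library conflicts with the source names and was not used.

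Counts were tested with edgeR 4.0.16 in R 4.3.3: filterByExpr, TMM scaling, 1 coefficient per line, all 12 libraries in 1 fit, and a robust quasi-likelihood test with Benjamini-Hochberg adjustment over 18286 genes at 0.05. The genes tested held 99.9% of reads. SE is the size of the log2 fold change divided by the square root of F. CPM uses TMM-scaled library sizes. Floors use 3 reads, and ratios of low counts have exact 95% intervals that cover counting error only. Positions and exon lengths come from GENCODE release 29 for GRCh38, which held 58275 of 58395 gene identifiers. The scripts were tested on simulated data. Alternatives were DESeq2 1.42.0 and its size factors, no filter, a stricter filter (1 CPM in 4 libraries), only the 2 lines compared, the replicate number as a block and leaving out each library.

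Every tested member is named, those changed at least 2-fold get the value of each library, and up to 4 genes per comparison are named from the wider list, the 2 largest rises and the 2 largest falls. A result of that list is not reported here. The members and lists were chosen with earlier results of these data known. The labels give replicates 1 to 4 in each line but no shared culture or day. Same-numbered libraries of K562 and K/VP.5 deviated together (r = 0.31, 0.15, 0.14 and 0.51 across genes, which are not independent), so that pairing comes from the data. It is incomplete, as K562 replicate 3 correlated best with K/VP.5 replicate 1. In the other pairs of lines replicates 2 and 3 had correlations below 0.1 (the highest 0.050), although replicates 1 and 4 reached 0.31 to 0.47. The main fit used no pairing in any comparison, and the replicate number entered only as a block in an alternative fit.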

Additional observations from a re-analysis of the deposited data

Results flagged for a closer look

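Of 123 groups of 4 libraries (41 members in 3 lines), 11 held a library whose gap to the nearest other library was above Dixon's 95% critical value of 0.829 as a share of the range. Chance flags about 1 in 20 groups, and 5 of the 11 were in K562 replicate 4. In that library EPHA1 stood at 3.1 CPM (others 0.649 to 0.983), UNC5CL at 1.33 CPM (others 0.721 to 0.785), PLXNB3 at 8.17 CPM (others 4.68 to 5.21) and SEMA4B at 151 CPM (others 44.5 to 62.8), all high, while EPHB4 was low at 178 CPM (others 257 to 273). UNC5B was high in K562 replicate 2 at 1.11 CPM (others 0.724 to 0.785), and ROBO1 was low in K562 replicate 1 at 0.141 CPM (others 0.402 to 0.444). ROBO2 had its 1 read in K562 replicate 3, at 0.0341 CPM (others 0), and the rule flags any group in which only 1 library holds reads. In K/VP.5 replicate 4, ROBO3 was high at 2.21 CPM (others 1.31 to 1.42), as was SEMA4A at 2.29 CPM (others 1.02 to 1.11). EPHA2 was low in edit-3 replicate 1 at 0.323 CPM (others 0.834 to 0.935). What set these libraries apart was not tested.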

How the results depend on the processing

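The counts of changed members were within 1.5 times of 25, 15 and 26 (K/VP.5 versus K562, edit-3 versus K/VP.5, edit-3 versus K562) under every alternative run: 24, 17 and 26 by the DESeq2 test, 29, 15 and 30 with no filter, 23, 14 and 24 with the stricter filter (35 members tested), and 20 to 24, 13 to 19 and 25 to 28 leaving out 1 library. With the replicate number as a block they were 26, 20 and 27, and the calls this changed in K/VP.5 versus K562 stand in the report and no other call there changed. In the comparisons with edit-3 the block added PLXNA1, PLXNB1, SEMA4A, SEMA4G and SEMA6B in edit-3 versus K/VP.5 and PLXNB1 in edit-3 versus K562. It turned 3 uncalled log2 values: EPHA1 in edit-3 versus K562 to 0.065, SEMA6A in edit-3 versus K/VP.5 to 0.0062 and SEMA6C in K/VP.5 versus K562 to 0.040. Leaving out 1 library turned only uncalled values. In K/VP.5 versus K562 these were EPHA1 (-0.89 to 0.11), UNC50 (-0.12 to 0.033), PLXNB1 (-0.12 to 0.17), SEMA4F (-0.10 to 0.49) and SEMA6C (-0.23 to 0.26). In edit-3 versus K/VP.5 they were NTN1 (-0.12 to 0.32), SEMA6A (-0.25 to 0.24) and SEMA7A (-0.11 to 0.13). In edit-3 versus K562 they were EPHA1 (-0.34 to 0.71), UNC50 (-0.012 to 0.14), PLXND1 (-0.018 to 0.25), SEMA3B (-0.44 to 0.35), SEMA4B (-0.64 to 0.16) and SEMA4C (-0.23 to 0.13). The causes were not tested. Depth limits EPHA5, EPHB3, ROBO2, EFNA2 and PLXNA2, which had under 10 reads in at least 1 line.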
